A study of Homo sapiens with 24 samples.

Results

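The comparison is between BPH-1 cells that overexpressed C-Raf and BPH-1 cells that carried the empty vector, and it rests on 6 of the 24 RNA sequencing libraries of the study, 3 per group. The libraries were chosen by their titles, and both groups were counted in a single deposited table. BPH-1 is a benign human prostate epithelial line immortalized with SV40 large T antigen. The study asked how non-mutated C-Raf turns such cells metastatic, and the other 18 libraries hold RWPE-1 cells, a prostate epithelial line immortalized with HPV18, and lines regrown from metastases.

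The vector control group, labelled BPH1-ILYW-sGluc, carried the FU-ILYW lentiviral vector, which encodes a yellow fluorescent protein and firefly luciferase. The C-Raf group, labelled BPH1-C-Raf-sGluc, carried the same vector with a C-Raf sequence driven by the ubiquitin promoter. Both groups also carried a secreted Gaussia luciferase reporter (sGluc), so the reporter is no difference between them. Neither the labels nor the methods say whether a line is a pool or a clone, or whether the 3 libraries of a group came from separate cultures. The p-values therefore measure the spread between these libraries, which may be technical. The labels name DMEM for BPH-1 cells, the methods RPMI.

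C-Raf is a serine/threonine kinase that active RAS recruits to the membrane. It phosphorylates MEK, which phosphorylates ERK, and ERK acts on transcription factors of the ETS, AP-1 and serum response families. ERK output is held in check by genes that it induces itself, among them the dual-specificity phosphatases that remove phosphate from ERK and the Sprouty and SPRED proteins that act upstream. In epithelia, lasting ERK activity is known for the induction of secreted proteases, growth factors and cytokines.

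The 6 libraries held 25997814 to 33551459 counts, of which 97.4% to 98.2% fell on protein-coding genes. Levels are given in CPM, TMM-scaled counts of a gene relative to 1e+06 protein-coding counts, and 3 counts correspond to 0.0895 to 0.12 CPM. The first principal component held 82.1% of the variance and separated the groups. The common biological coefficient of variation was 2.43%, so small differences passed the test. Epithelial identity genes were present in both groups, with a summed level of 7230 to 7467 CPM over 10 genes in the vector control and 7048 to 7136 CPM with C-Raf. E-cadherin (CDH1) stood at 439, 474 and 441 CPM in the vector control and 372, 370.0 and 372 CPM with C-Raf. The secretory prostate genes KLK2 and KLK3 had 0 counts in all 6 libraries, and vimentin (VIM), a mesenchymal filament protein, had 0 to 6 counts per library.

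Of 13230 protein-coding genes tested, 7910 (59.8%) differed at an adjusted p below 0.05 by edgeR's quasi-likelihood test. Of these, 4018 (30.4% of genes tested) were higher with C-Raf and 3892 (29.4%) were lower. The split depended on the scaling: 50.8% of calls were higher with TMM and 40.6% with upper quartile factors. Most differences were small, since 5729 called genes (72.4%) changed by less than 0.5 on the log2 scale, and the median absolute change of called genes was 0.27. A large change, meaning called and at least 1 on the log2 scale, was met by 928 genes (7.01%), 312 higher (2.36%) and 616 lower (4.66%). Over all genes tested, the log2 fold changes had a median of -0.0018. The balance of large rises and falls changed with the expression level. Above a mean of 100 CPM, 33 of 2398 genes had a large rise and 12 a large fall. Between 1 and 10 CPM the counts were 137 and 274 of 2665, and between 10 and 100 CPM they were 78 and 110 of 7190. Under 1 CPM, where levels rest on few counts, they were 64 and 220 of 977. A gene could pass the count filter through a single group. With at least 10 counts in every library, large falls numbered 398, and the part of the filter in this balance was not tested.

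**Figure D1:**
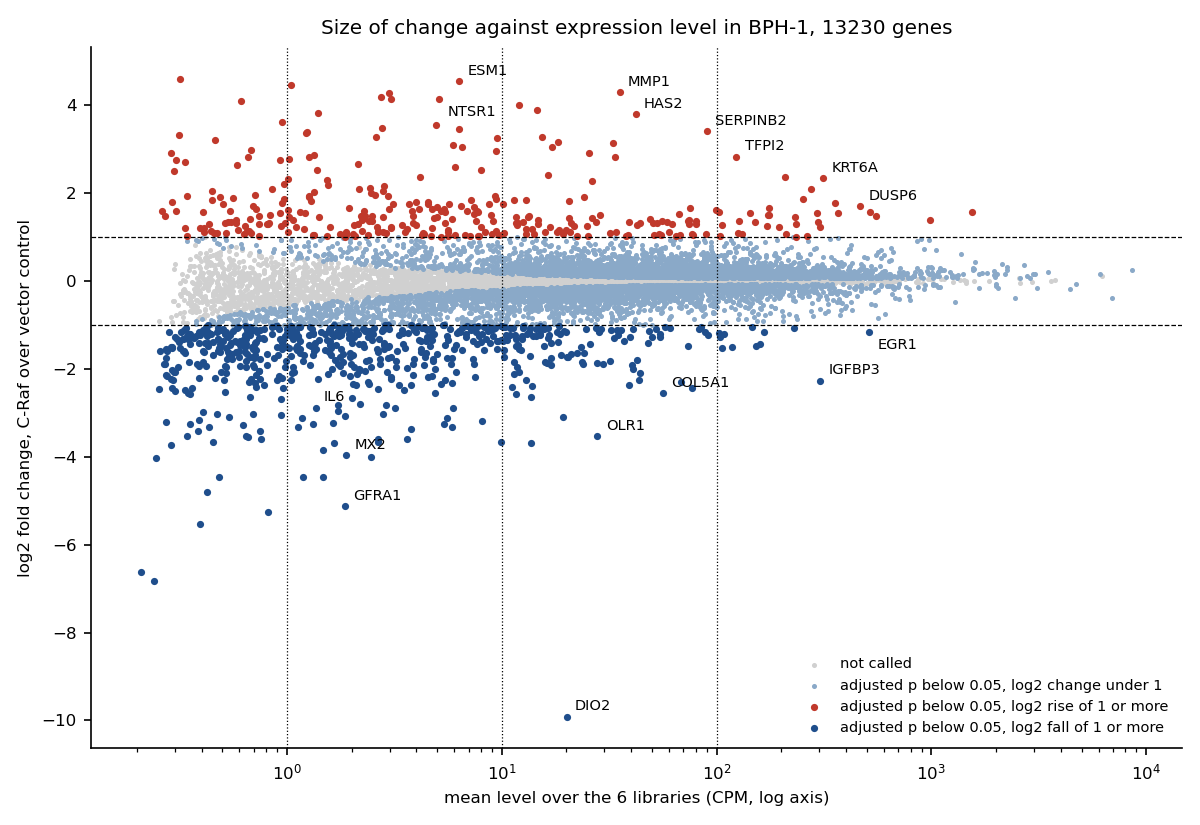
Log2 fold change of C-Raf over vector control (vertical axis) against the mean level over the 6 libraries in CPM (horizontal log axis) for 13230 genes. Grey points were not called, pale blue points were called with a change under 1, and red and dark blue points had a large rise or fall (dashed lines at 1 and -1, dotted lines at 1, 10 and 100 CPM). DIO2 lies lowest at -9.91, and above 100 CPM the red points (33) outnumber the dark blue points (12).

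Among genes above 100 CPM, the largest reported rise was that of TFPI2, a secreted inhibitor of serine proteases (chromosome 7, 93885396 to 93890991, GRCh38). Its level was 30.9, 28.7 and 31.5 CPM in the vector control libraries and 213, 225 and 214 CPM in the C-Raf libraries (log2 fold change 2.84 ± 0.037 SE, edgeR's quasi-likelihood test, Benjamini-Hochberg adjusted p = 1.22e-29). The groups did not overlap, which held for 8375 of all genes tested (63.3%). ANO1, a calcium-activated chloride channel, rose 5.20-fold from 67.5 to 351 CPM. KRT6A, a keratin of activated and stratified epithelium, rose 5.10-fold from 102 to 522 CPM, and reads of its close copy KRT6B can be exchanged with it. NT5E (CD73), the enzyme that makes extracellular adenosine from AMP, rose 3.63-fold from 109 to 395 CPM.

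The falls above 100 CPM were led by IGFBP3, a secreted carrier protein of insulin-like growth factors (chromosome 7, 45912245 to 45921874). IGFBP3 measured 499, 513 and 499.7 CPM in the vector control and 107, 104 and 104 CPM with C-Raf. All 3 C-Raf libraries lay 4.80-fold below the vector control on average (log2 fold change -2.26 ± 0.028 SE, edgeR's quasi-likelihood test, Benjamini-Hochberg adjusted p = 5.21e-30). CITED2, a transcriptional co-regulator, fell 2.89-fold from 157 to 54.2 CPM, and HEG1, a membrane mucin, fell 2.85-fold from 174 to 61.0 CPM. TPM1, an actin-binding tropomyosin, fell 2.79-fold from 225 to 80.6 CPM, and the carboxypeptidase CPA4 fell 2.68-fold from 233 to 87.0 CPM. RHOB, a small GTPase, fell 2.26-fold from 143 to 63.1 CPM.

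Between 10 and 100 CPM the leading rise was MMP1, the interstitial collagenase (chromosome 11, 102789920 to 102798160), with 3.52, 3.28 and 3.40 CPM in the vector control and 68.8, 66.1 and 67.0 CPM with C-Raf. The level was 19.8-fold higher with C-Raf (log2 fold change 4.30 ± 0.059 SE, edgeR's quasi-likelihood test, Benjamini-Hochberg adjusted p = 4.04e-29). FOXA2, a forkhead transcription factor, rose 16.2-fold from 1.39 to 22.6 CPM, and DOCK4, an exchange factor for small GTPases, rose 15.1-fold from 1.81 to 27.3 CPM. HAS2, which synthesizes the matrix polysaccharide hyaluronan, rose 14.0-fold from 5.60 to 78.2 CPM. The urea transporter SLC14A1 rose 9.04-fold from 3.64 to 32.9 CPM, and ANTXR2, a matrix-binding membrane receptor, rose 8.86-fold from 6.67 to 59.1 CPM.

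The falls in the same range were led by DIO2, the type 2 deiodinase that activates thyroid hormone (chromosome 14, 80197527 to 80387757). DIO2 stood at 39.5, 40.6 and 39.9 CPM in the vector control, and the 3 C-Raf libraries held 3 counts together. The ratio of vector control to C-Raf was 1073, with an exact 95% interval of 367 to 5205 that covers counting error only. OLR1, a scavenger receptor for oxidized LDL, fell 11.6-fold from 51.3 to 4.43 CPM. LRRC7, a scaffold protein known from synapses, fell 12.9-fold from 25.3 to 1.97 CPM, and FAT3, an atypical cadherin, fell 8.44-fold from 34.5 to 4.09 CPM. ACKR3, a scavenging receptor for CXCL12, fell 6.24-fold from 23.5 to 3.76 CPM, and the ubiquitin ligase subunit FBXO32 fell 5.96-fold from 20.0 to 3.36 CPM.

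Between 1 and 10 CPM the leading rises were ESM1, CA10, CNTN1, DSCAM, SLC6A15 and NTSR1. ESM1 (endocan), a secreted proteoglycan, measured 0.567, 0.570 and 0.406 CPM in the vector control and 11, 13.0 and 12.4 CPM with C-Raf, a 23.5-fold rise (log2 fold change 4.55 ± 0.15 SE, edgeR's quasi-likelihood test, Benjamini-Hochberg adjusted p = 1.58e-20). NTSR1, the high-affinity neurotensin receptor, rose 17.4-fold from 0.556 to 9.66 CPM. The neural adhesion molecules CNTN1 and DSCAM rose 18.6-fold from 0.278 to 5.17 CPM and 22.8-fold from 0.0878 to 2.0 CPM. CA10, a carbonic anhydrase-related protein, rose 19.6-fold from 0.291 to 5.69 CPM, and SLC6A15, a neutral amino acid transporter, rose 18.2-fold from 0.317 to 5.76 CPM. The leading falls were GFRA1, the co-receptor for GDNF, 36.6-fold lower (from 3.61 to 0.0986 CPM), the cadherin family member PCDH19, 22.4-fold lower (from 2.83 to 0.126 CPM), and VAV3, an exchange factor for small GTPases, 22.5-fold lower (from 2.28 to 0.101 CPM). The cyclic nucleotide phosphodiesterase PDE1C fell 16.3-fold from 4.62 to 0.283 CPM, the semaphorin SEMA3E fell 14.6-fold from 2.74 to 0.188 CPM, and the cadherin CDH7 fell 13.2-fold from 3.08 to 0.233 CPM. PPP2R2B, a regulatory subunit of protein phosphatase PP2A, fell 12.7-fold from 18.3 to 1.44 CPM. Besides DIO2, the actin nucleator FMN2 was on in the vector control (at least 1 CPM in every library) and off with C-Raf (at most 3 counts in every library), with 3 counts over the C-Raf libraries, a vector control mean of 1.58 CPM and a ratio of 42.2 (exact 95% interval 14.1 to 207, counting error only). By the same limits 0 genes were on with C-Raf and off in the vector control.

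Hand-written lists of genes gave the shares called in each direction by pathway. Among the 34 lists left when epithelial identity and the markers of other cell types are set aside, those with the highest share called higher were the MAPK activity score genes and the plasminogen system (90% each), oxidative phosphorylation (87.5%) and the ERK feedback inhibitors (72.2%). Those with the highest share called lower were antigen presentation (95.2%), interferon-stimulated genes (95%) and immediate early genes (70.4%). The shares over all genes tested were 30.4% and 29.4%, the comparison for each list count that follows.

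**Figure D2:**
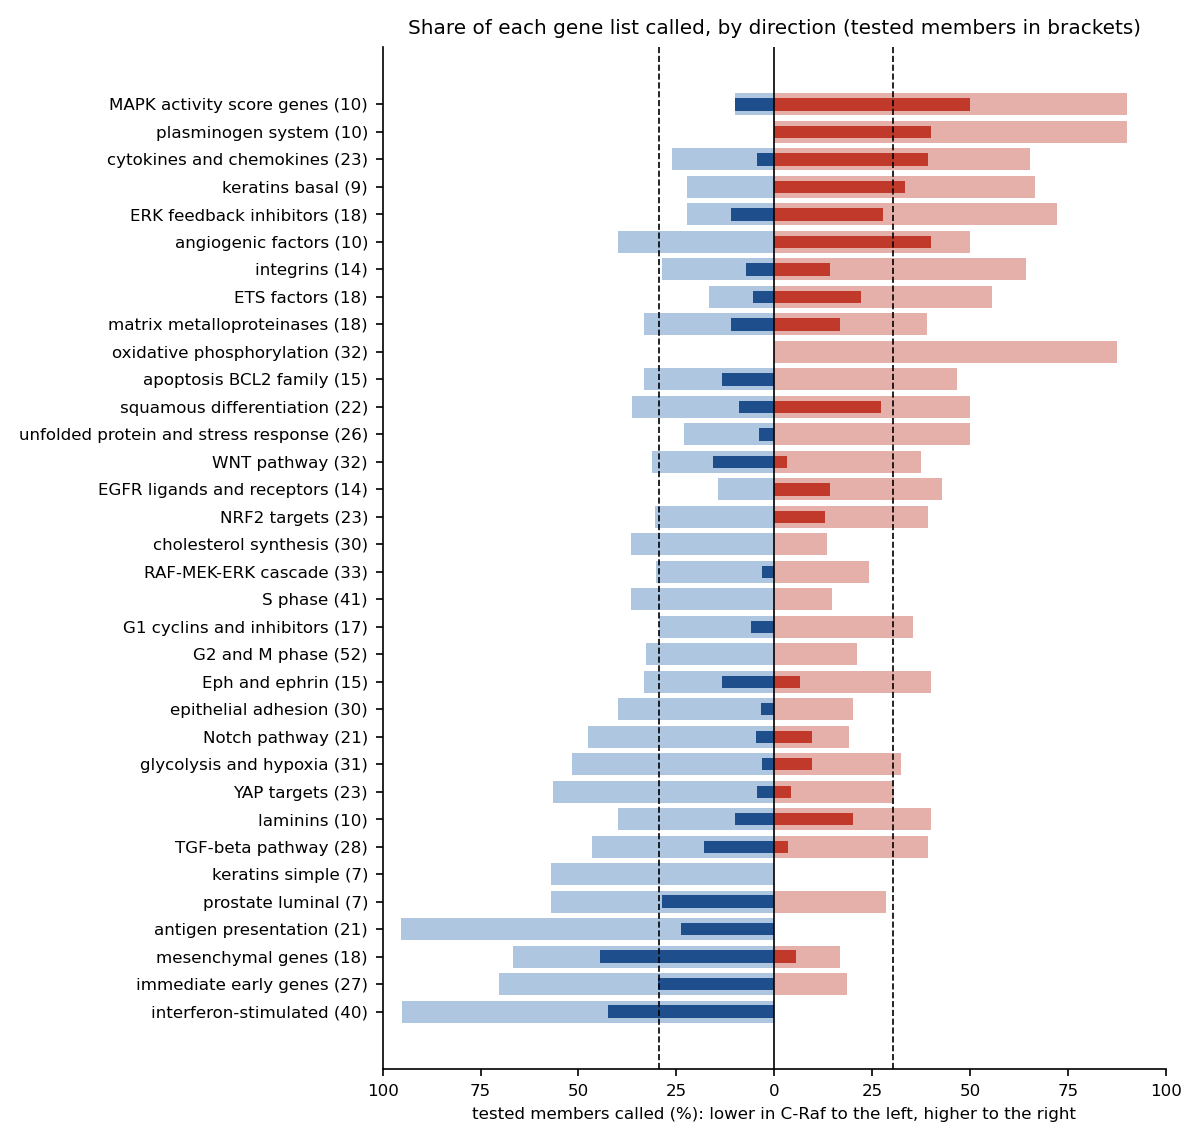
Share of the tested members of each of 34 gene lists called higher (pale red, to the right) or lower (pale blue, to the left) with C-Raf, with the share having a large rise or fall drawn as narrow dark bars. Lists are ordered by their median log2 fold change, tested members stand in brackets, and dashed lines mark the shares over all genes, 30.4% and 29.4%. Interferon-stimulated genes have no bar to the right, and the plasminogen system has none to the left.

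The components of the RAS to ERK cascade itself changed little. Of 33 genes for RAS proteins, exchange factors, scaffolds and kinases, 8 were called higher, 10 lower and 1 had a large change, with a median log2 fold change of -0.019. ARAF, a further RAF kinase, measured 94.6, 94.1 and 93.9 CPM in the vector control and 91.4, 87.7 and 88.0 CPM with C-Raf. The fall was called (log2 fold change -0.081 ± 0.032 SE, edgeR adjusted p = 0.029), but the call was lost without vector control replicate 1 or 3 or without C-Raf replicate 2 or 3 (adjusted p from 0.0659 to 0.115). BRAF, the third RAF kinase, measured 29.2, 31.1 and 30.0 CPM and 32.2, 30.1 and 34.1 CPM, overlapping ranges that did not pass the test (log2 fold change 0.09 ± 0.049 SE, edgeR's quasi-likelihood test, Benjamini-Hochberg adjusted p = 0.105) until C-Raf replicate 2 was left out (adjusted p = 0.0272). The large change was a fall of MRAS, a RAS relative, from 2.87 ± 0.170 to 1.33 ± 0.105 CPM (mean ± SD, n = 3 per group). RASA1, which switches RAS off, rose 1.88-fold from 42.9 to 80.5 CPM, the scaffold KSR1 fell 1.5-fold from 21.1 to 14.1 CPM, and the ERK substrate kinase RPS6KA2 rose 1.45-fold from 13.6 to 19.7 CPM.

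ERK feedback inhibitors were mostly higher with C-Raf. Of 18 tested, 13 were called higher and 4 lower, 5 had a large rise and 2 a large fall, and the median log2 fold change was 0.43. DUSP6, a phosphatase that acts on ERK in the cytoplasm (chromosome 12, 89347232 to 89353271), measured 221, 214 and 222 CPM in the vector control and 704, 722 and 714 CPM with C-Raf, a 3.26-fold rise (log2 fold change 1.70 ± 0.027 SE, edgeR's quasi-likelihood test, Benjamini-Hochberg adjusted p = 7.95e-28). DUSP4, a nuclear phosphatase, rose 3.17-fold from 83.7 to 265 CPM. Among the Sprouty genes, SPRY4 rose 3.75-fold from 10.1 to 37.9 CPM, SPRY1 rose 3.59-fold from 5.62 to 20.2 CPM and SPRY2 rose 2.74-fold from 6.25 to 17.1 CPM, while SPRY3 stood at 1.04 ± 0.257 and 1.06 ± 0.333 CPM without a call. In contrast, DUSP1 measured 80.2, 81.8 and 84.8 CPM in the vector control and 39.0, 40.4 and 38.7 CPM with C-Raf, a 2.09-fold fall (log2 fold change -1.06 ± 0.037 SE, edgeR's quasi-likelihood test, Benjamini-Hochberg adjusted p = 1.04e-19), and DUSP8 fell 3.53-fold from 7.48 to 2.12 CPM. DUSP1 and DUSP8 are known to act on the stress kinases JNK and p38, as are DUSP10 and DUSP16 of the same list. These went in both directions: DUSP10 rose 1.475-fold from 31.2 to 46.0 CPM, and DUSP16 fell 1.55-fold from 15.6 to 10.1 CPM.

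Of the 10 genes commonly used to score MAPK output, 9 were called higher and 1 lower (median log2 fold change 1.01). The score shares DUSP4, DUSP6, SPRY2 and SPRY4 with the feedback inhibitors. Beyond these, PHLDA1 rose 1.96-fold from 227 to 445 CPM and the ETS factor ETV4 rose 2.07-fold from 35.9 to 74.5 CPM. Cyclin D1 (CCND1) rose 1.11-fold, from 938, 916 and 913 CPM to 1026, 1018 and 1039.8 CPM, a small change without overlap. The exception was the receptor EPHA4, which fell 4.25-fold from 1.74 to 0.409 CPM.

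Immediate early genes, transcription factors and other genes induced within minutes of ERK activation, went mostly the other way. Of 27 tested, 19 were called lower and 5 higher, 8 had a large fall and 0 a large rise, and the median log2 fold change was -0.74. EGR1, a zinc finger transcription factor (chromosome 5, 138465490 to 138469315), measured 724, 698 and 716 CPM in the vector control and 323, 321 and 307 CPM with C-Raf, a 2.25-fold fall (log2 fold change -1.17 ± 0.027 SE, edgeR's quasi-likelihood test, Benjamini-Hochberg adjusted p = 6.84e-24). EGR2 fell 7.0-fold from 5.06 to 0.723 CPM, and EGR3 fell 2.75-fold from 9.02 to 3.28 CPM. FOS, an AP-1 subunit, measured 149.9, 149.6 and 155 CPM and 68.9, 66.1 and 62.1 CPM, a 2.31-fold fall, and FOSB fell 2.40-fold from 146 to 60.7 CPM. JUN and JUNB, the partners of FOS in AP-1, fell 1.74-fold and 1.68-fold. NR4A1, an orphan nuclear receptor, fell 3.73-fold from 37.5 to 10.1 CPM, the stress factor ATF3 fell 3.53-fold from 49.8 to 14.1 CPM, and CTGF, a secreted matricellular protein, fell 5.36-fold from 129 to 24.1 CPM.

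The 5 members that rose were FOSL1, IER3, MYC, KLF4 and IER5. FOSL1 (FRA-1), the FOS family member known from lasting ERK signaling, measured 248, 239 and 252 CPM in the vector control and 490.2, 496 and 475 CPM with C-Raf, a 1.98-fold rise (log2 fold change 0.98 ± 0.028 SE, edgeR's quasi-likelihood test, Benjamini-Hochberg adjusted p = 6.01e-22). IER3 rose 1.90-fold from 184 to 349.8 CPM, and MYC rose 1.27-fold from 425 to 541 CPM. FOS and FOSL1 thus lay on opposite sides of the vector control in all 3 C-Raf libraries.

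**Figure D3:**
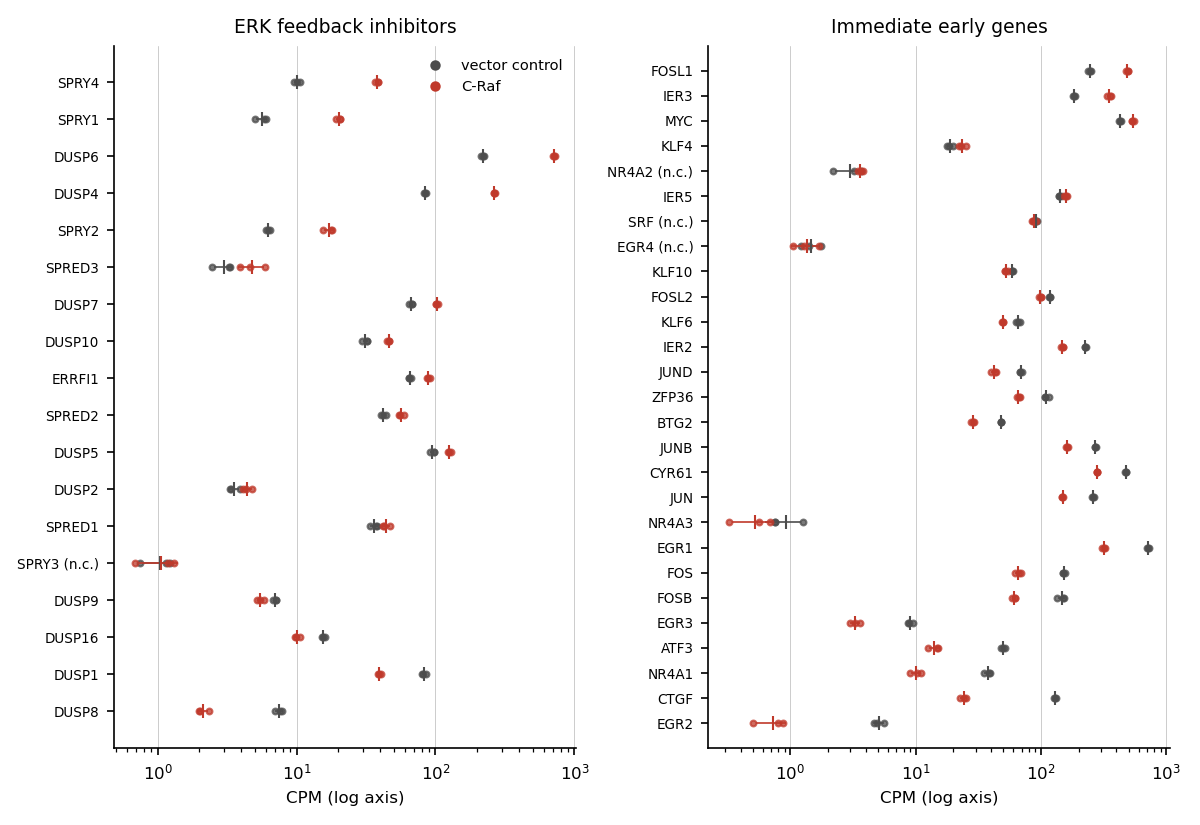
Level of each tested ERK feedback inhibitor (left, 18 genes) and immediate early gene (right, 27 genes) in CPM on a log axis, with 1 point per library, grey for vector control and red for C-Raf, and ticks and bars for mean ± SD. Genes are ordered by log2 fold change and n.c. marks genes not called. Red points lie to the right for DUSP6, DUSP4, SPRY1, SPRY2, SPRY4 and FOSL1 and to the left for DUSP1, EGR1, FOS and CTGF.

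The EGR1 promoter is shown because its serum response elements are the textbook route from ERK to immediate early genes. The sequence is that of the 250 bases before the first listed RefSeq start, chr5:138465229-138465478 (+) in GRCh38.p14, with the CArG boxes, the core letters bound by serum response factor, in capitals.

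EGR1: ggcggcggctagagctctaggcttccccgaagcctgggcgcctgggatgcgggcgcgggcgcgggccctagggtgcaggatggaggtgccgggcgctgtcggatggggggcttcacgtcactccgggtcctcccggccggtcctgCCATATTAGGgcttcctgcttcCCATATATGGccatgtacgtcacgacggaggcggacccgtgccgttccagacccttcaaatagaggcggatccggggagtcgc

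A CArG box was found in 2 of 19 immediate early genes with a promoter sequence and in 0.97% of the promoters of all genes tested. CArG boxes and the interferon motif given further on were chosen for the search after the values were seen.

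Of 18 ETS transcription factors, 10 were called higher (55.6%, against 30.4% of all genes) and 3 lower (16.7%, against 29.4%). A large rise was seen in 4 (median log2 fold change of the list 0.27). SPDEF, an ETS factor of secretory epithelium, rose from 0.0223 to 0.615 CPM and stayed below 1 CPM. ETV1 rose 11.1-fold from 0.457 to 5.09 CPM and FLI1 2.25-fold from 11.3 to 25.4 CPM, while ETV4 stood at 35.4, 35.5 and 36.8 CPM in the vector control and 75.1, 73.7 and 74.9 CPM with C-Raf (log2 fold change 1.05 ± 0.037 SE, edgeR's quasi-likelihood test, Benjamini-Hochberg adjusted p = 9.02e-20). ETV5 measured 48.8 ± 1.44 and 83.6 ± 1.14 CPM (log2 fold change 0.78, edgeR adjusted p = 4.00e-17). ELF3, an ETS factor of differentiated epithelium, fell 3.45-fold from 65.8 to 19.1 CPM.

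Of 14 genes of the EGF receptor family, its ligands and their sheddase, 6 were called higher and 2 lower. The genes called higher were ligands, and the receptors called were lower. HBEGF, a membrane-anchored ligand, measured 50.7, 53.1 and 50.5 CPM in the vector control and 152, 156 and 150.3 CPM with C-Raf, a 2.97-fold rise (log2 fold change 1.57 ± 0.033 SE, edgeR's quasi-likelihood test, Benjamini-Hochberg adjusted p = 6.55e-25). AREG rose 1.92-fold from 59.6 to 114 CPM, TGFA 1.92-fold from 79.6 to 153 CPM, EREG 1.80-fold from 22.7 to 41.0 CPM and the neuregulin NRG2 2.16-fold from 2.26 to 4.86 CPM. EGFR overlapped between the groups at 684 ± 55.2 and 700.1 ± 34.8 CPM (log2 fold change 0.03 ± 0.039 SE, edgeR's quasi-likelihood test, Benjamini-Hochberg adjusted p = 0.466), and ERBB2 and ERBB3 fell 1.32-fold and 1.52-fold.

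The plasminogen system, which turns plasminogen into the protease plasmin, rose as activators, receptor and inhibitors alike. Of 10 genes tested, 9 were called higher and 0 lower (median log2 fold change 0.81, against 30.4% higher over all genes). SERPINB2, an inhibitor of urokinase, measured 15.1, 15.1 and 16.1 CPM in the vector control and 161, 167 and 165 CPM with C-Raf, a 10.6-fold rise (log2 fold change 3.41 ± 0.04 SE, edgeR's quasi-likelihood test, Benjamini-Hochberg adjusted p = 2.51e-30). Urokinase itself (PLAU) measured 126, 123 and 123 CPM and 337, 349 and 339 CPM, a 2.76-fold rise. Its receptor PLAUR rose 2.57-fold from 44.7 to 115 CPM, the inhibitor SERPINE2 rose 2.53-fold from 33.5 to 84.6 CPM, and the tissue activator PLAT rose 1.83-fold from 26.8 to 48.9 CPM.

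Matrix metalloproteinases and their inhibitors were split, with 7 of 18 called higher (38.9%) and 6 lower (33.3%). These shares were near those of all genes (30.4% and 29.4%). After MMP1, the stromelysin MMP10 rose 10.6-fold from 0.210 to 2.23 CPM and the gelatinase MMP9 rose 2.93-fold from 0.615 to 1.80 CPM, both at low levels. MMP14, the membrane protease that activates MMP2, measured 299, 314 and 302 CPM in the vector control and 547, 534 and 537 CPM with C-Raf, a 1.77-fold rise, and MMP2 rose 1.54-fold from 55.5 to 85.4 CPM. MMP24 and MMP25 fell 4.08-fold and 2.20-fold, and the tissue inhibitor TIMP2 fell 1.71-fold from 212 to 124 CPM. The inhibitors TIMP3 and TIMP1 rose 1.52-fold from 59.1 to 90.1 CPM and 1.29-fold from 67.4 to 86.8 CPM, and TIMP4 fell 1.57-fold from 3.22 to 2.06 CPM.

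Inflammatory cytokines and chemokines were higher in 15 of 23 tested cases and lower in 6, with 9 large rises and 1 large fall (median log2 fold change 0.78). IL1A, an alarmin cytokine, measured 161, 155 and 171 CPM in the vector control and 546, 552 and 559 CPM with C-Raf, a 3.41-fold rise (log2 fold change 1.77 ± 0.03 SE, edgeR's quasi-likelihood test, Benjamini-Hochberg adjusted p = 6.09e-27). IL1B rose 2.48-fold from 135 to 335 CPM. Among the neutrophil-attracting chemokines, CXCL5 measured 8.12, 9.48 and 7.43 CPM and 57.8, 61.0 and 57.2 CPM, a 7.04-fold rise, CXCL1 rose 3.53-fold from 9.11 to 32.1 CPM and CXCL3 rose 4.47-fold from 1.03 to 4.60 CPM. CXCL1, CXCL2 and CXCL3 are near copies, so reads may be split among them. The colony stimulating factors CSF2 and CSF3 rose 2.19-fold and 12.2-fold, CSF3 from a level near 0 (0.0597, 0.214 and 0.156 CPM). The large fall was that of IL6, with 2.57, 2.17 and 2.44 CPM in the vector control and 0.323, 0.253 and 0.400 CPM with C-Raf, a 7.35-fold fall (log2 fold change -2.88 ± 0.25 SE, edgeR's quasi-likelihood test, Benjamini-Hochberg adjusted p = 6.46e-11).

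Of 10 angiogenic factors tested, 5 were called higher, 4 lower, and 4 had a large rise. VEGFA measured 152, 161 and 153 CPM in the vector control and 314, 315 and 311 CPM with C-Raf, a 2.02-fold rise (log2 fold change 1.01 ± 0.028 SE, edgeR's quasi-likelihood test, Benjamini-Hochberg adjusted p = 4.44e-22). Placental growth factor (PGF) rose 3.37-fold from 4.62 to 15.6 CPM, ANGPTL4 2.36-fold from 1.81 to 4.27 CPM and VEGFC 1.79-fold from 45.1 to 80.8 CPM. The 8 endothelial markers summed to 3.31 to 4.24 CPM in the vector control and 2.84 to 3.47 CPM with C-Raf, with 0 to 1 count of the defining marker PECAM1 per library.

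**Figure D4:**
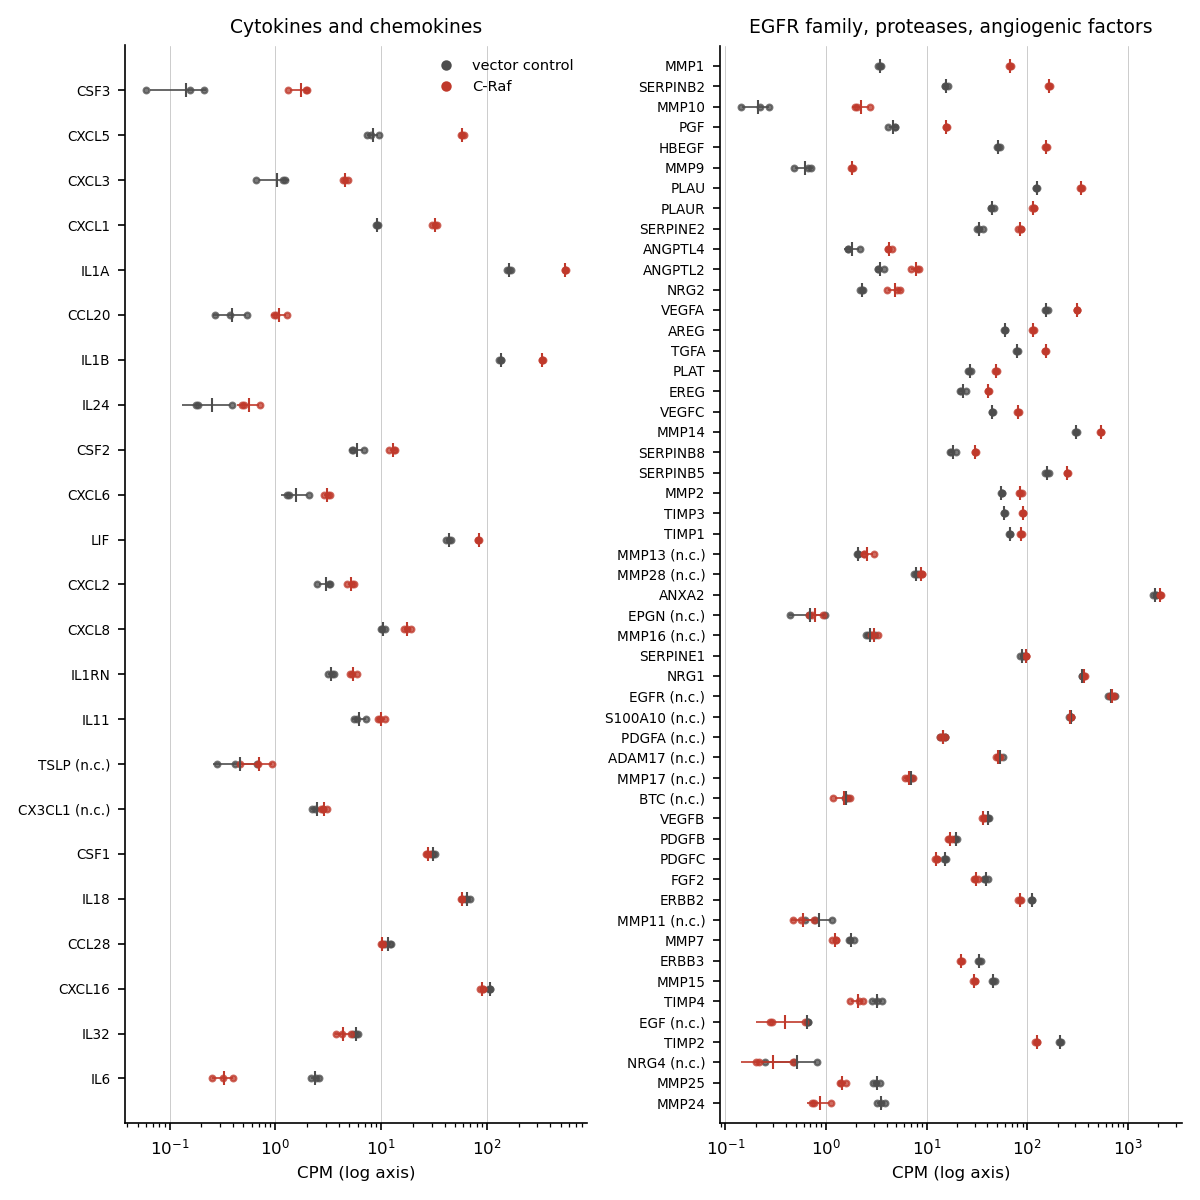
Level of each tested cytokine or chemokine (left, 23 genes) and of genes of the EGFR family, plasminogen system, metalloproteinases and angiogenic factors (right) in CPM on a log axis, 1 point per library, grey for vector control and red for C-Raf, ticks and bars for mean ± SD, n.c. for not called. Red points lie to the right for CXCL5, IL1A, MMP1, SERPINB2 and PLAU, and to the left for IL6, TIMP2, MMP24 and MMP25.

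AP-1, the dimer of FOS and JUN family proteins, binds the letters TGACTCA or TGAGTCA. These letters, read on both strands, stood in the 250 bases before the first listed start of 23 of 221 genes with a large rise (10.4%), 12 of 442 with a large fall (2.71%) and 283 of all 10477 genes tested that have a promoter sequence (2.70%). Over all 27305 promoters of the RefSeq table the share was 4.16%. The letters were found in 3 of 8 plasminogen system genes and 4 of 17 cytokine genes with a sequence. In the other lists searched they were found in 1 of 9 metalloproteinase genes, 2 of 30 interferon-stimulated genes, 1 of 16 ERK feedback inhibitors and 0 of 19 immediate early genes. For a rise of at least 2 on the log2 scale the share was 8 of 51 (15.7%), and for a fall of that size 1 of 102 (0.98%). Among these 8 were SPRR1A, SPRR1B, SPRR2A and SPRR3, members of a single gene family, so the 8 are not independent genes. A match describes these windows and does not show binding.

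Promoters of 4 genes with a large rise and the AP-1 letters are printed to show the motif and its place, with the letters in capitals. They belong to the cornified envelope gene SPRR1B (chr1:153030953-153031202 (+)), the urokinase receptor PLAUR (chr19:43670170-43670419 (-)), the cytokine IL1A (chr2:112784494-112784743 (-)) and the laminin chain LAMA3 (chr18:23872770-23873019 (+)), all in GRCh38.p14. In IL1A the motif ends 6 bases before the start, and in LAMA3 there are 2 motifs.

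SPRR1B: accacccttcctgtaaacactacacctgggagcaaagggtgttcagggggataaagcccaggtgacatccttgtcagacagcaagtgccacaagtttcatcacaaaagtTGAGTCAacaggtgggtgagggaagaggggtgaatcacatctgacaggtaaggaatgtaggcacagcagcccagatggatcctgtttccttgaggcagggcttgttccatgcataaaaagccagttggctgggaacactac

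PLAUR: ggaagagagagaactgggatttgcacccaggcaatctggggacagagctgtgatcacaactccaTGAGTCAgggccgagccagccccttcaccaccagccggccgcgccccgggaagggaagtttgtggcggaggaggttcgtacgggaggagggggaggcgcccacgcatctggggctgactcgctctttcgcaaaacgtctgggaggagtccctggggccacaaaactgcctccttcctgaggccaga

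IL1A: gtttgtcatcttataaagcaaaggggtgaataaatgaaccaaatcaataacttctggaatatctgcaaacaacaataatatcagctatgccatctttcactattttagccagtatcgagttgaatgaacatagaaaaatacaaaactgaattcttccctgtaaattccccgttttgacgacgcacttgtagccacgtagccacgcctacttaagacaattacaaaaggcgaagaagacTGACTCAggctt

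LAMA3: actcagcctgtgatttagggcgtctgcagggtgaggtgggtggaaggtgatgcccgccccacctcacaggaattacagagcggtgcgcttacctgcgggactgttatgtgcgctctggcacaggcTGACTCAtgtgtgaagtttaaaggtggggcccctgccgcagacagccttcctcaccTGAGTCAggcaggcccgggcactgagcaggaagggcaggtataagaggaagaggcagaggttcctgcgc

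Laminins are basement membrane proteins. LAMA3, a laminin chain of stratified epithelium, measured 255, 276 and 249 CPM in the vector control and 787, 761 and 787 CPM with C-Raf, a 2.99-fold rise without overlap (log2 fold change 1.58 ± 0.031 SE, edgeR's quasi-likelihood test, Benjamini-Hochberg adjusted p = 1.35e-25), and LAMB3 rose 1.88-fold from 598 to 1122 CPM. Of all 10 laminin chains tested, 4 were called higher and 4 lower, and LAMA1 fell 4.75-fold from 2.31 to 0.486 CPM. Integrin subunits, the receptors for such matrix, were called higher in 9 of 14 and lower in 4. The collagen receptor subunit ITGA2 measured 114, 128 and 110.0 CPM and 279, 262 and 282 CPM, a 2.34-fold rise, while ITGB8 fell 2.16-fold from 48.9 to 22.6 CPM.

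Mesenchymal genes were mostly lower with C-Raf. Of 18 tested, 12 were called lower and 3 higher, with 8 large falls and a median log2 fold change of -0.63, against 29.4% lower over all genes. COL5A1, a fibrillar collagen chain, measured 91.4, 100.0 and 97.0 CPM in the vector control and 17.0, 15.4 and 17.1 CPM with C-Raf, a 5.83-fold fall (log2 fold change -2.54 ± 0.047 SE, edgeR's quasi-likelihood test, Benjamini-Hochberg adjusted p = 2.99e-26). N-cadherin (CDH2) measured 45.4, 50.3 and 43.7 CPM and 12.6, 12.1 and 12.8 CPM, a 3.71-fold fall. SPARC and TNC, matricellular proteins, fell 2.07-fold from 197 to 95.2 CPM and 2.22-fold from 229 to 103 CPM, and the smooth muscle protein TAGLN fell 5.13-fold from 5.55 to 1.08 CPM. Fibronectin (FN1) fell 1.42-fold from 327 to 231 CPM. The members that rose were CDH11 (2.09-fold), TWIST2 (1.99-fold) and SNAI1 (1.46-fold). In bulk RNA, fewer cells of a type cannot be told apart from less RNA per cell. Fibroblast markers, which share COL1A1 with this list, moved the same way: all 4 of 10 that could be tested were lower and the summed level went from 30.7 to 33.3 CPM in the vector control to 13.3 to 13.7 CPM with C-Raf, most of it COL1A1 (from 27.5 to 12.2 CPM), while the defining markers COL3A1, PDGFRA and POSTN had 0 counts in all 6 libraries. Their part in the result was not tested.

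Of 30 epithelial adhesion genes, 6 were called higher, 12 lower and 1 had a large change, a called share near that of all genes (59.8%; median log2 fold change -0.042). CDH1 fell 1.22-fold, the tight junction gene CLDN1 fell 1.32-fold from 423 to 321 CPM, and GRHL2, a transcription factor of epithelial identity, fell 1.47-fold from 110.5 to 75.3 CPM, whereas EPCAM rose 1.12-fold from 205 to 229 CPM. Basal epithelial genes were higher in 6 of 9 and lower in 2. The 2 lower were KRT17, which fell 1.33-fold from 808 to 608 CPM, and KRT15, which fell 1.14-fold from 25.7 to 22.5 CPM. KRT16 was not called. KRT14 rose 2.04-fold from 173 to 353 CPM, and the basal transcription factor TP63 measured 161, 159 and 158 CPM in the vector control and 222, 216 and 223 CPM with C-Raf, a 1.38-fold rise (log2 fold change 0.47 ± 0.027 SE, edgeR's quasi-likelihood test, Benjamini-Hochberg adjusted p = 1.63e-14). Keratins of simple epithelium were lower in 4 of 7 and higher in 0, with KRT8 falling 1.40-fold from 1499.7 to 1074 CPM.

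Squamous differentiation genes were divided, with 11 of 22 called higher and 8 lower. The small proline-rich cornified envelope genes rose from low levels. SPRR1B measured 3.40, 2.17 and 2.94 CPM in the vector control and 25.9, 28.3 and 29.7 CPM with C-Raf, a 9.86-fold rise (log2 fold change 3.28 ± 0.093 SE, edgeR's quasi-likelihood test, Benjamini-Hochberg adjusted p = 6.92e-22). SPRR3 rose 15-fold from 0.175 to 2.62 CPM and SPRR2A 10.7-fold from 0.211 to 2.26 CPM. SPRR1A with SPRR1B and the SPRR2 genes are close copies whose reads can be exchanged. Elafin (PI3), an elastase inhibitor, rose 11.9-fold from 0.767 to 9.09 CPM. The desmosomal cadherin DSC1 fell 25.8-fold from 0.928 to 0.0359 CPM, and the skin protease KLK5 fell 3.33-fold from 9.06 to 2.72 CPM.

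Interferon-stimulated genes were lower with C-Raf nearly throughout. Of 40 tested, 38 were called lower, 0 higher, and 17 had a large fall, with a median log2 fold change of -0.84, against 29.4% lower and 4.66% with a large fall over all genes. IFI6, a mitochondrial antiviral protein (chromosome 1, 27666061 to 27672218), measured 44.5, 43.1 and 43.3 CPM in the vector control and 11.7, 11.9 and 12.4 CPM with C-Raf, a 3.64-fold fall (log2 fold change -1.86 ± 0.051 SE, edgeR's quasi-likelihood test, Benjamini-Hochberg adjusted p = 2.86e-22). IFIT1, which binds viral RNA, measured 18.3, 16.8 and 18.1 CPM and 4.45, 5.14 and 5.40 CPM, a 3.54-fold fall. MX2 fell 16.3-fold from 3.54 to 0.218 CPM, IFI44L 12.3-fold from 4.89 to 0.396 CPM and IFI27 9.56-fold from 9.76 to 1.02 CPM. The groups did not overlap in any of these genes, which held for 63.3% of all genes tested.

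IRF9, the DNA-binding subunit of the interferon-activated complex ISGF3, measured 21.0, 21.1 and 21.9 CPM in the vector control and 5.24, 4.23 and 3.96 CPM with C-Raf, a 4.77-fold fall (log2 fold change -2.25 ± 0.082 SE, edgeR's quasi-likelihood test, Benjamini-Hochberg adjusted p = 2.46e-19). Its partner STAT2 fell 1.42-fold from 44.1 to 31.1 CPM, and IRF1 fell 1.54-fold from 73.2 to 47.5 CPM. The genes not called were ISG20, at 2.42 ± 0.174 and 2.37 ± 0.388 CPM, and USP18, at 12.8 ± 0.718 and 11.5 ± 0.612 CPM.

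ISGF3 binds an element that contains GAAA, then NN for any bases, then GAAA. This pattern, read on both strands, was found in the promoter windows of 17 of 30 interferon-stimulated genes with a sequence (56.7%), in 23 of 442 genes with a large fall (5.20%) and in 2.33% of all genes tested. The interferon-stimulated and large-fall sets share genes with the pattern, among them IFI6, IFIT1, IFI27 and IFI44L, so their shares are not separate observations. The windows of IFI6 (chr1:27672193-27672442 (-)) and IFIT1 (chr10:89392373-89392622 (+)) are printed as members of high level and large fall, with the pattern or its reverse complement in capitals (GRCh38.p14).

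IFI6: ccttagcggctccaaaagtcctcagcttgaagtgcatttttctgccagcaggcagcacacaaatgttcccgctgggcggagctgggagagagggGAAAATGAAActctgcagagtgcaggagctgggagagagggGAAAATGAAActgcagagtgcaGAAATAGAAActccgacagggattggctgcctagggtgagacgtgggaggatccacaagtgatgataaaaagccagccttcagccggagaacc

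IFIT1: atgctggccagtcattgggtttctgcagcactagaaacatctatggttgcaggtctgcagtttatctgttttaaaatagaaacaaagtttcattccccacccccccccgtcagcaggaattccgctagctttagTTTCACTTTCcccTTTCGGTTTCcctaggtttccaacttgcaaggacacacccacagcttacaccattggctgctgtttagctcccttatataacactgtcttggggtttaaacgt

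Antigen presentation genes fell in 20 of 21 cases and rose in 0, with 5 large falls and a median log2 fold change of -0.59. HLA-B, a class I heavy chain, measured 262, 274 and 265 CPM in the vector control and 144, 140.4 and 139 CPM with C-Raf, a 1.89-fold fall (log2 fold change -0.92 ± 0.028 SE, edgeR's quasi-likelihood test, Benjamini-Hochberg adjusted p = 5.65e-21). Its partner B2M fell 1.31-fold from 771 to 589 CPM. Of the class II pathway, HLA-DRA fell 4.56-fold from 5.01 to 1.10 CPM, the class II transactivator CIITA fell 2.04-fold from 9.24 to 4.54 CPM, and the invariant chain CD74 fell 1.76-fold from 190.4 to 108 CPM. HLA genes are variable near copies of each other, so their separate values are uncertain. TAP2, a peptide transporter, was the member not called (169.8 ± 5.78 and 170.5 ± 2.79 CPM). Class II genes are typical of leukocytes, and the 10 haematopoietic markers summed to 3.64 to 4.01 CPM in the vector control and 3.12 to 3.69 CPM with C-Raf. The leukocyte antigen PTPRC fell from 0.746, 0.392 and 0.468 CPM to 0, 0 and 0.120 CPM, and the part of such cells in the result was not tested.

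**Figure D5:**
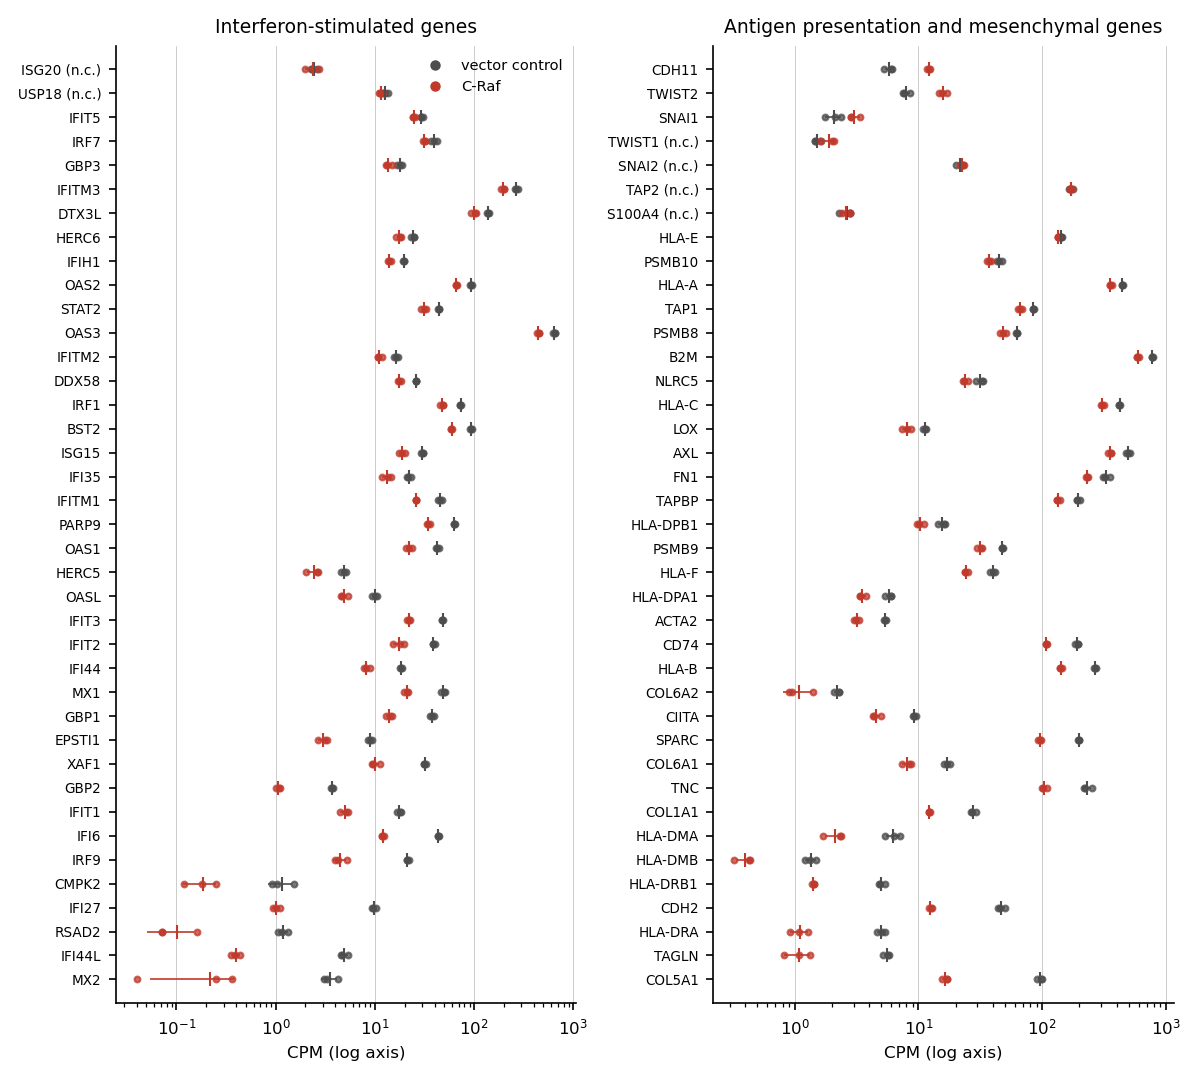
Level of interferon-stimulated genes (left, 39 of the 40 tested) and of antigen presentation and mesenchymal genes (right) in CPM on a log axis, 1 point per library, grey for vector control and red for C-Raf, ticks and bars for mean ± SD, n.c. for not called. Apart from ISG20 and USP18 the genes on the left have their C-Raf mean to the left by a called difference, while CDH11, TWIST2 and SNAI1 at the top right have it to the right.

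Developmental signaling pathways held calls in both directions. Over all genes tested, 30.4% were called higher and 29.4% lower. In the TGF-beta pathway, 11 of 28 were called higher and 13 lower. The ligand TGFB2 measured 63.2, 67.4 and 65.5 CPM in the vector control and 11.9, 12.9 and 13.3 CPM with C-Raf, a 5.15-fold fall (log2 fold change -2.36 ± 0.049 SE, edgeR's quasi-likelihood test, Benjamini-Hochberg adjusted p = 5.65e-25), the ligand BMP4 fell 3.62-fold from 25.3 to 7.0 CPM, and SMAD6, an inhibitor of BMP signaling, fell 5.63-fold from 5.95 to 1.06 CPM. Follistatin (FST), which binds activin, rose 1.99-fold from 152 to 304 CPM. In the Notch pathway, 4 of 21 were higher and 10 lower. The ligand JAG1 measured 87.3, 97.2 and 85.8 CPM and 259, 250.2 and 263 CPM, a 2.85-fold rise, while the receptor NOTCH3 fell 3.33-fold from 30.9 to 9.28 CPM and the target HES1 fell 1.63-fold from 181 to 111 CPM. Of the WNT pathway, 12 of 32 were higher (37.5%) and 10 lower (31.25%), near the shares of all genes. WNT4 and WNT10A fell 4.06-fold and 2.09-fold. Of YAP targets and Hippo kinases, 7 of 23 were higher and 13 lower, with CYR61 falling 1.69-fold from 473 to 279.6 CPM. Of Eph receptors and ephrins, 6 of 15 were higher and 5 lower, with EFNB1 rising 2.10-fold from 136 to 285 CPM. Among the secretory prostate genes, 2 of 7 were higher and 4 lower.

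Cell cycle genes changed by small amounts. Of 41 S phase genes, 6 were called higher and 15 lower, and of 52 G2 and M phase genes 11 and 17, with 0 large changes in either list and medians of -0.027 and -0.031. With upper quartile factors the counts were 3 and 19 for S phase and 9 and 26 for G2 and M phase. The proliferation marker MKI67 measured 677, 725 and 701 CPM in the vector control and 644, 640.5 and 620.1 CPM with C-Raf. Among 17 G1 regulators, the kinase inhibitor CDKN2C fell 2.08-fold from 11.5 to 5.56 CPM. In the BCL2 family, 7 of 15 were higher (46.7%, against 30.4% of all genes) and 5 lower (33.3%, against 29.4%). The anti-apoptotic genes MCL1 and BCL2L1 rose 1.26-fold and 1.22-fold, and the pro-apoptotic gene BMF fell 2.20-fold from 3.27 to 1.49 CPM while BIK rose 1.78-fold from 5.67 to 10.1 CPM.

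Respiratory chain genes rose in most cases by small amounts. Of 32 nuclear genes for the respiratory chain, 28 were called higher and 0 lower, by a median of 0.14 on the log2 scale and with 0 large changes. SDHB, a succinate dehydrogenase subunit, measured 114, 112 and 113 CPM in the vector control and 150.4, 155 and 154 CPM with C-Raf (log2 fold change 0.44 ± 0.029 SE, edgeR's quasi-likelihood test, Benjamini-Hochberg adjusted p = 2.49e-13). With upper quartile factors 19 were higher and 0 lower. Of 31 glycolysis and hypoxia genes, 10 were higher and 16 lower, with the vasodilator peptide ADM falling 2.12-fold from 112 to 52.9 CPM while VEGFA rose. Of 30 genes of sterol and fatty acid synthesis, 4 were higher and 11 lower. Of 23 NRF2 targets, 9 were higher and 7 lower, with AKR1C1, AKR1C2 and AKR1C3, near copies of each other, rising 3.35-, 4.55- and 2.70-fold. Of 26 genes of the unfolded protein and stress response, 13 were higher and 6 lower, and the chaperone HSPA5 rose 1.25-fold from 860.4 to 1073 CPM.

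RWPE-1 cells allowed a description in a further line, with a single vector control library and 4 C-Raf libraries. C-Raf replicate 1 lies in the same table as that vector control, whereas the other 3 replicates lie in another table, where the table and C-Raf cannot be told apart. Of 219 genes with a large rise in BPH-1 that reached 1 CPM in an RWPE-1 library, 147 (67.1%) lay above the RWPE-1 vector control in all 4 C-Raf libraries and 29 (13.2%) below in all 4. Over all 11950 genes these shares were 28.3% and 32.1%. Of 327 genes with a large fall in BPH-1, 100 (30.6%) lay above and 96 (29.4%) below in all 4. A gene could reach the 1 CPM limit through its C-Raf libraries alone. Without that limit, 171 of 312 genes with a large rise (54.8%) lay above and 50 (16.0%) below in all 4. Of 616 genes with a large fall, 153 (24.8%) lay above and 153 below. The shares of all genes without the limit were not computed. Within the shared table, C-Raf replicate 1 was at least 1 on the log2 scale above the vector control in 34.7% of the genes that rose, 11.6% of the genes that fell and 2.74% of all genes. It was at least 1 below in 5.94% of the genes that rose, 21.4% of the genes that fell and 2.03% of all genes.

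DUSP6 stood at 235 CPM in the RWPE-1 vector control and 362, 355, 288 and 283 CPM in C-Raf replicates 1 to 4. LAMA3 stood at 128 CPM and 169, 465, 1045 and 969.8 CPM, above the vector control in each C-Raf library. IFI6 stood at 6.13 CPM in the vector control and 5.96, 15.1, 461 and 448 CPM with C-Raf, with replicate 1 next to the vector control and replicates 3 and 4 far above it. No test was made, since a single vector control has no spread.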

How the data were processed

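RNA of 24 libraries of BPH-1 and RWPE-1 cells was sequenced by the authors. The deposited tables hold expected counts per gene symbol, which the authors made with the TOIL pipeline. The submitters' processing notes name cutadapt, FastQC, STAR, RSEM and hg38, and the annotation is not given in the sources used here. The study filtered for coding genes and used DESeq2, with ComBat-seq across batches. All 24 columns matched a listed library by title.

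Expected counts of 6 libraries were rounded to whole numbers. Of 60448 symbols, 36627 were found in GENCODE 29 (GRCh38), 908 through an older symbol, and 19215 were protein-coding. Genes passing filterByExpr were scaled by TMM and compared by edgeR 4.0.16 (R 4.3.3), quasi-likelihood F test, group as the sole term, two-sided, with Benjamini-Hochberg adjustment over all genes tested. A gene was called at an adjusted p below 0.05. The procedure was tested on simulated data. DESeq2 1.42.0 was an alternative. Mean ± SD is over n = 3 libraries. Intervals and floors (3 counts) cover counting error only. Levels in RWPE-1 came from 14 libraries scaled together.

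The genes and lists were chosen with earlier results of these data known. Named genes were the 8 largest rises and falls in each of 3 tiers of mean CPM, ARAF, BRAF, list members with a large change or the largest changes of their list, and genes on in a single group. Other list members were named for their known role after their values were seen. Some genes are not reported here. Promoters are RefSeq sequences (GRCh38.p14), 250 bases before the first listed start, and were matched by symbol for 10477 of 13230 genes tested.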

Additional observations from a re-analysis of the deposited data

Results flagged for a closer look

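In 17 of 144 genes compared, the 3 BPH-1 C-Raf libraries all lay on 1 side of the BPH-1 vector control and the 4 RWPE-1 C-Raf libraries all lay on the other side of the single RWPE-1 vector control, by at least 1 on the log2 scale on average. The share of all genes tested that met this rule was not computed. Over all genes, the groups did not overlap in BPH-1 for 63.3%. In RWPE-1, 28.3% lay above the vector control in all 4 C-Raf libraries and 32.1% below. The difference between the cell lines was not tested, because RWPE-1 has a single vector control library. Only RWPE-1 C-Raf replicate 1 shares a table with that library, so its own log2 difference is given beside the mean of the 4. The differences were computed with a prior count of 2, and IGFBP3 and HLA-DRB1 had fewer than 3 counts in the RWPE-1 vector control, so the size of their differences depends on that prior.

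Of genes that fell in BPH-1, IGFBP3 differed most, with 0.0613 CPM in the RWPE-1 vector control and 3.99, 8.74, 47.5 and 43.7 CPM in C-Raf replicates 1 to 4, a mean log2 difference of 7.03 (5.00 within the shared table). COL6A2, COL6A1, TAGLN, RHOB and HLA-DRB1 were higher with C-Raf by 4.51, 2.18, 2.01, 2.14 and 3.09, and within the shared table by 3.15, 1.14, 1.04, 1.61 and 1.94. The interferon-stimulated genes IFI44L, IFI44, GBP1 and IRF9 were higher by 5.30, 2.18, 2.0 and 2.21, and within the shared table by 0.86, 0.34, 0.015 and 0.39. CDH2, TNC, EGR3 and MRAS were higher by 1.79, 1.77, 1.77 and 1.42, and within the shared table by 0.56, 0.48, 0.98 and 0.15.

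Of genes that rose in BPH-1, the cornified envelope genes SPRR3 and SPRR1B were lower with C-Raf in RWPE-1, at -4.07 and -3.44, and within the shared table at -2.20 and -0.75. SPRR1B stood at 16.8 CPM in the RWPE-1 vector control and 9.98, 0.837, 0.736 and 0.748 CPM in C-Raf replicates 1 to 4. ANO1 was lower at -1.12 (-2.39 within the shared table), with 3.28 CPM in the vector control and 0.575, 0.972, 3.09 and 2.62 CPM with C-Raf.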

How the results depend on the processing

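Of the 144 genes given by the naming rule, each kept its direction under each setting in which it was fitted, and 125 were fitted with at least 10 counts in every library. The count of 7910 called genes was 6794 with DESeq2, 7906 with RLE size factors, 7829 with upper quartile factors, 8137 with no filter on low counts, 7561 with at least 10 counts in every library and 8248 over all genes of the table. Large falls numbered 398 with at least 10 counts in every library. A test against a log2 fold change of 0.5 called 1372 genes, 527 higher and 845 lower, and left 6 ERK feedback inhibitors, 6 ETS factors, 4 integrins and 0 respiratory chain genes called higher and 8 antigen presentation genes called lower, since it asks for a larger change. At a limit of 10 counts, 8 genes were on with C-Raf alone and 27 on in the vector control alone. The AP-1 letters stood in 15.7% of promoters at a rise of 2 or more, several of them of the SPRR family, and in 0.98% at a fall of 2 or more.

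Leaving out each library in turn gave 7287 to 7635 called genes (3712 to 3911 higher, 3575 to 3724 lower), 949 to 1012 large changes, 314 to 338 large rises and 628 to 692 large falls. Members called higher ranged over 14 to 17 for cytokines, 5 to 7 for the EGFR family, 12 to 13 for ERK feedback inhibitors, 7 to 8 for metalloproteinases and 21 to 26 for the respiratory chain, and members called lower over 18 to 19 for immediate early and 38 to 39 for interferon-stimulated genes. The other lists tried kept their counts.

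Replicate numbers do not pair the libraries: deviations from the group means correlated between the groups at r = 0.042, -0.054 and -0.037 for the same number. A fit with the replicate number as a block gave 7678 calls, 7646 of them shared with the fit without it in the same direction. The call of ARAF was lost in this fit and with DESeq2 (adjusted p = 0.0516 and 0.0596). Levels under 1 CPM rest on few counts, which limits the smallest genes.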
